A study of Homo sapiens with 27 samples.

Results

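The BTG and TOB genes encode a small family of antiproliferative proteins, and 5 members were followed here: BTG2, BTG1, BTG3, TOB1 and TOB2. They were taken by symbol from a table of 57992 genes. The set was chosen with a result in view: BTG2 was higher with every CARM1 hairpin in every line, and since BTG2 was chosen on its knockdown values, these are given as a description without a test. The other 4 members were taken by family name. RNA came from 3 human acute myeloid leukaemia lines, MOLM13, MV411 and SKNO1. Each line carried a constitutive lentiviral shRNA: hairpin 1 against CARM1, hairpin 2 against CARM1, or a scramble control, with 3 replicates per group and 27 libraries in all. CARM1, also called PRMT4, is an arginine methyltransferase. Cells were sampled on day 3 after shRNA delivery, and all SKNO1 cultures, scramble included, received 10 ng/mL GM-CSF. Each is an established cell line, and the labels do not say whether replicates were separate transductions, so p-values measure the spread between these libraries, which may be technical. SKNO1 scramble replicates 1 and 3 were the closest 2 libraries of any group. Their chi-square per gene, a measure of how far counts of 2 libraries differ, was 7.01. It was 50 and 61.1 for their pairs with replicate 2, and 19 to 107 within the other groups. The SKNO1 scramble spread may therefore rest on fewer than 3 separate samples. In such bulk RNA, a change in which cells are present and a change in RNA per cell cannot be told apart.

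BTG and TOB proteins share an N-terminal domain that binds CNOT7 and CNOT8, deadenylase subunits of the CCR4-NOT complex, which shortens poly(A) tails and so marks mRNA for decay. TOB1 and TOB2 also bind the poly(A) binding protein PABPC1 through their longer C-terminal part, while BTG1 and BTG2 bind the methyltransferase PRMT1. BTG2 is a p53 target and an immediate early gene, BTG1 is expressed widely in blood cells and is often mutated in lymphoma, and BTG3 is known as ANA. A sixth human relative, BTG4, works in the oocyte, and here it had from 0 to 1 count per library.

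CARM1 itself was lower in every knockdown library. Its levels, in CPM (counts of a gene per 1000000 counts of the library, with library sizes scaled by TMM), were 2.8 to 5.82 in MOLM13 knockdown against 20.1 to 28.3 in MOLM13 scramble. They were 2.62 to 6.27 in MV411 knockdown against 22.9 to 24 in MV411 scramble, and 2.67 to 8.74 in SKNO1 knockdown against 16.2 to 19.9 in SKNO1 scramble. Library totals ran between 25063577 and 53291599 expected counts. Of the fixed markers, RUNX1T1, part of the fusion that defines SKNO1, was at 56.6 to 113 CPM there and at most 0.103 CPM elsewhere. The leukocyte gene PTPRC was at 88.1 CPM or more in all libraries. RUNX1T1 and PTPRC do not identify MOLM13 or MV411, whose identity was not checked. MPO was low in MV411, at 1.5 to 3.59 CPM. Of the 11 markers of other cell types, PECAM1, which myeloid cells also express, held most of the signal. Their summed level was 104 to 281 CPM in MOLM13 knockdown against 56.7 to 111 CPM in MOLM13 scramble. In MV411 it was 44.3 to 53.8 CPM with hairpin 1 and 110 to 128 CPM with hairpin 2, against 47.3 to 56.6 CPM with scramble. In SKNO1 it was 3.81 to 5.68 CPM with hairpin 1 and 8.84 to 12.3 CPM with hairpin 2, against 5.57 to 9.6 CPM with scramble. The T cell gene CD3E and the B cell gene MS4A1 did not exceed 0.0521 CPM in any library, and the part of these markers in the results was not tested. The share of counts from mitochondrial and structured non-coding RNA moved with knockdown: 41.9% to 52.8% in MOLM13 knockdown against 37.3% to 39.9% in MOLM13 scramble, 42.7% to 51.1% against 37.3% to 39.9% in MV411, and 24.4% to 29.5% against 18.4% to 20.8% in SKNO1. With those RNAs removed, the BTG2 difference between knockdown and scramble was 1.6, 1.37 and 0.99 log2 units in MOLM13, MV411 and SKNO1, and no call on the 4 other members in a knockdown comparison changed.

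The promoters of BTG2, BTG1 and BTG3 are shown because these 3 genes behaved differently from one another under the same hairpins. Each line gives bases upstream of the gene on its own strand, from RefSeq on GRCh38.p14, and capitals mark the motif matches named below. The BTG1 window was cut where its GENCODE 29 gene begins, while those of BTG2 and BTG3 end a short way upstream of theirs. BTG2 lies at chr1:203305269-203305468 (plus strand), BTG1 at chr12:92145898-92146096 (minus strand) and BTG3 at chr21:17612952-17613151 (minus strand).
BTG2: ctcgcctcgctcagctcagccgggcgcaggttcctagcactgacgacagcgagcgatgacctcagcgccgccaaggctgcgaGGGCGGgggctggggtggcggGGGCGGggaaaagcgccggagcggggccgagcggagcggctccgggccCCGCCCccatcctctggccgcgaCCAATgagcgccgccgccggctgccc
BTG1: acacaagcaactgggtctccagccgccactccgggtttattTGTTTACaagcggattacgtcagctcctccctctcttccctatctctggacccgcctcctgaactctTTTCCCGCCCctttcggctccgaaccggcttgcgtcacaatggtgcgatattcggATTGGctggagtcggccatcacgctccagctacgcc
BTG3: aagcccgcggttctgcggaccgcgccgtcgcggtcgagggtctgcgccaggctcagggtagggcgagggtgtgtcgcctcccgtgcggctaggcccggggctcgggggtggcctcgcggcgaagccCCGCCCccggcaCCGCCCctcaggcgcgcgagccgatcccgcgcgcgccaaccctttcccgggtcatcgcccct
Both strands were searched for CCAAT (bound by NF-Y), GGGCGG (Sp1), TGTTTAC (forkhead factors) and TTTCCCGC (E2F), as well as TATAAA (the TATA box), CACGTG (the E-box of MYC), TGACGTCA (CREB) with its shorter form TGACG, TTCNNNGAA (STAT factors), the p53 half-site and the serum response element. The BTG2 window held 3 GGGCGG matches and 1 CCAAT match, while BTG3 held 2 GGGCGG matches. BTG1 held 1 match each of the NF-Y, Sp1, forkhead and E2F letters, and its E2F and Sp1 matches overlap. TGACG, which lies within TGACGTCA and is left in lower case, matched once in the BTG2 window and at 2 places in the BTG1 window. Of 35116 promoter windows of 200 bases, 35% held GGGCGG, 27.4% CCAAT, 16% TGACG, 2.35% TGTTTAC and 1.12% TTTCCCGC. None of the 3 windows printed held the p53 half-site or the serum response element, which 4.51% and 0.86% of all windows hold. A match is a run of letters and not a shown binding site.

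The gene bodies differ in build. On GRCh38, BTG2 (ENSG00000159388) lies at chr1:203305491-203309602, BTG1 (ENSG00000133639) at chr12:92140278-92145897 and BTG3 (ENSG00000154640) at chr21:17593653-17612947. TOB1 (ENSG00000141232) lies at chr17:50862223-50867978 and TOB2 (ENSG00000183864) at chr22:41433492-41447023. In the GENCODE 29 transcripts used, BTG2 codes for 158 residues, BTG1 for 171, BTG3 for 252, TOB1 for 345 and TOB2 for 344. The 3′ UTR, counted with the stop codon, is long in BTG1 (3805 bases), TOB2 (2822 bases) and BTG2 (2167 bases). It is short in TOB1 (760 bases) and BTG3 (443 bases), against a median of 990 bases over 17654 genes. Genes with very short 3′ UTRs are left out of that median and of the motif shares that follow. The AU-rich pentamer ATTTA occurs 5 times in that of BTG1, 4 in TOB1, 3 each in BTG3 and TOB2, and 2 in BTG2, and 51.1% of genes hold 2 or more. TGTANATA, the letters that Pumilio proteins bind, occurs 4 times in BTG1 and not in the other 4 members, against 24.9% of genes with a match.

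With both hairpins together, BTG2 had the largest difference of the 5 members in every line. With SKNO1 hairpin 2 alone, TOB1 matched BTG2, both at 0.81 log2 units. In MOLM13 the BTG2 level was 53.1, 54.3 and 54.2 CPM with hairpin 1 and 65.1, 32.2 and 61.8 CPM with hairpin 2, against 21.9, 19.9 and 10.8 CPM with scramble. In MV411 it was 66, 55 and 57.3 CPM with hairpin 1 and 65.8, 48.4 and 55 CPM with hairpin 2, against 23.5, 22.8 and 20.4 CPM with scramble. In SKNO1, where BTG2 was lowest, it was 16.3, 16.8 and 19.8 CPM with hairpin 1 and 12, 15.6 and 14.7 CPM with hairpin 2, against 7.9, 7.92 and 8.19 CPM with scramble. All 6 knockdown libraries of each line lay above all 3 scramble libraries of that line. Over 21262 genes, 7.89% did so in MOLM13, 5.11% in MV411 and 4.13% in SKNO1; for BTG2 this is part of how it was chosen. Replicate 2 of MOLM13 hairpin 2 and replicate 3 of MOLM13 scramble were each low for their group. Leaving out 1 library at a time moved the fitted MOLM13 difference between 1.35, without that scramble library, and 1.8.

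**Figure D1:**
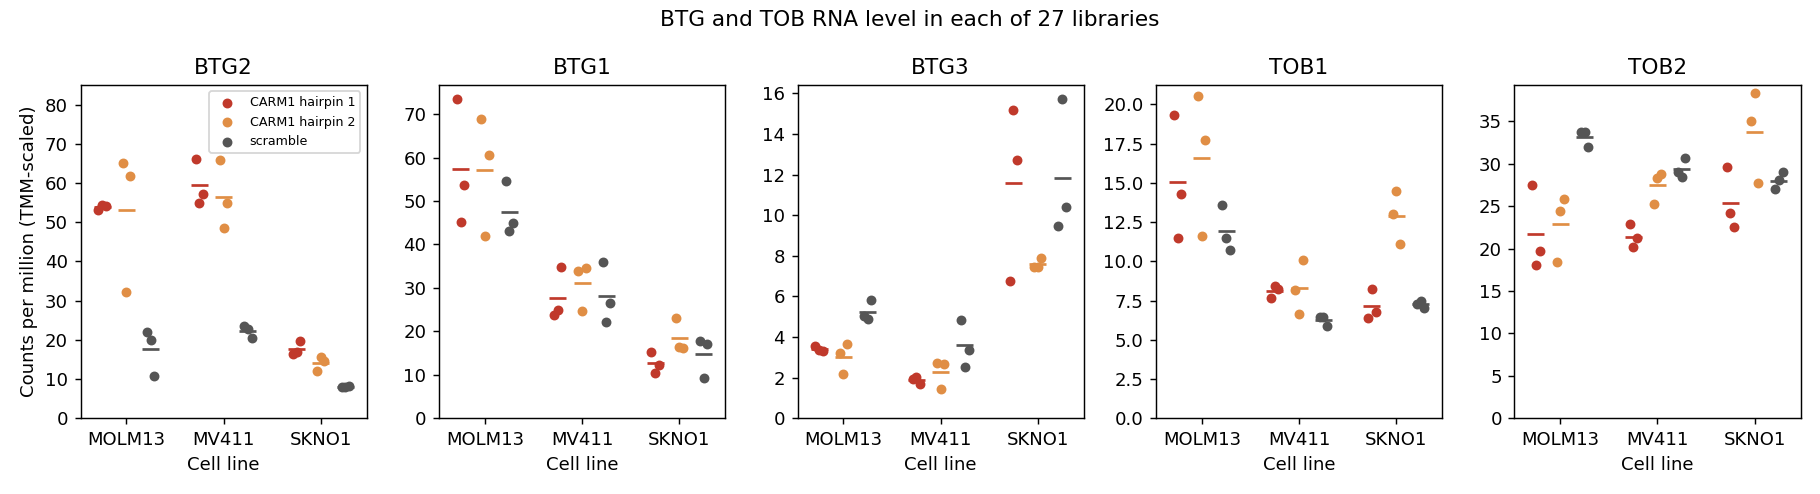
Level of each BTG and TOB gene (y axis, TMM-scaled CPM; scales differ between panels) by cell line, with 1 point per library, hairpin 1 and hairpin 2 left of scramble, and a bar at each group mean. BTG2 knockdown points lie above scramble in all 3 lines, BTG1 points overlap, and BTG3 and TOB2 points lie below scramble in MOLM13.

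As fitted log2 differences of knockdown over scramble, BTG2 stood at 1.62 ± 0.30 (SE) with hairpin 1 and 1.62 ± 0.30 with hairpin 2 in MOLM13. The values were 1.41 ± 0.14 and 1.32 ± 0.14 in MV411, and 1.13 ± 0.17 and 0.81 ± 0.17 in SKNO1, hairpin 1 before hairpin 2. Over all 18 knockdown and 9 scramble libraries the difference was 1.32 ± 0.13. These are the values on which BTG2 was chosen, and both hairpins of a line share its scramble libraries. Differences between those values are given in the same way, without a test, since a rise with every hairpin and in every line was required. Between hairpins, BTG2 differed by 0.00 ± 0.29 log2 units (hairpin 2 over hairpin 1) in MOLM13, by -0.09 ± 0.14 in MV411 and by -0.32 ± 0.16 in SKNO1. The knockdown effect was 0.63 ± 0.27 log2 units larger in MOLM13 than in SKNO1, 0.40 ± 0.27 larger in MV411 than in SKNO1 and 0.23 ± 0.27 larger in MOLM13 than in MV411.

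**Figure D2:**
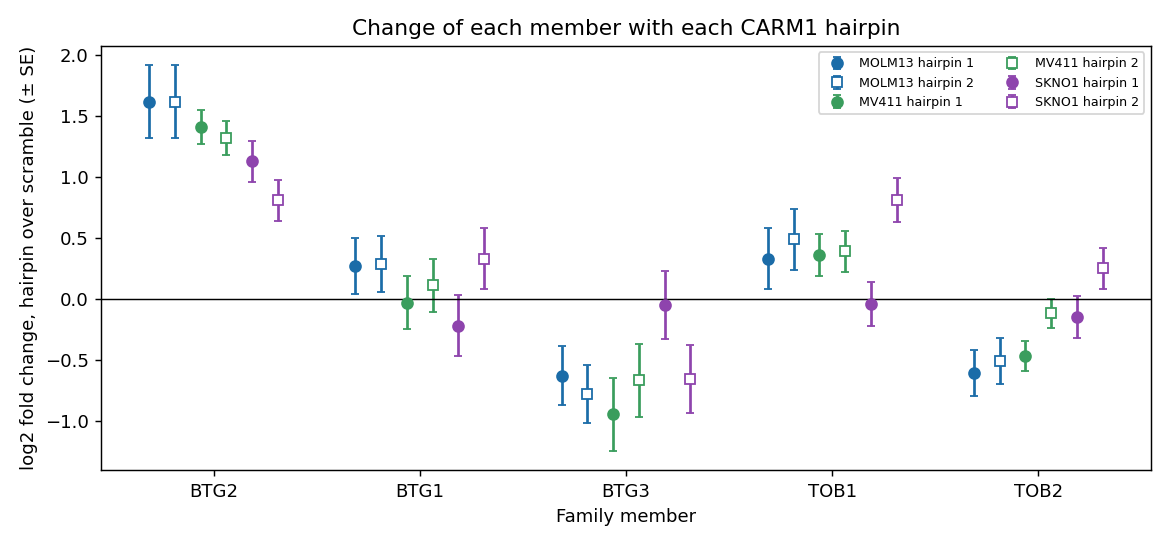
Fitted log2 fold change of each member with each CARM1 hairpin over scramble (y axis), with bars of 1 SE, coloured by line, filled circles for hairpin 1 and open squares for hairpin 2. BTG2 values run between 0.81 and 1.62, BTG3 values are all below 0, and TOB1 in SKNO1 splits by hairpin.

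BTG1, the closest relative of BTG2, was not called in any comparison of knockdown with scramble. Its level in MOLM13 was 73.5, 45.1 and 53.6 CPM with hairpin 1 and 68.8, 42 and 60.6 CPM with hairpin 2, against 54.5, 43 and 45 CPM with scramble. In MV411 it was 23.8, 24.8 and 34.7 CPM with hairpin 1 and 33.9, 24.6 and 34.6 CPM with hairpin 2, against 36, 22.1 and 26.6 CPM with scramble. In SKNO1 it was 15.3, 10.4 and 12.2 CPM with hairpin 1 and 23.1, 16.4 and 16.2 CPM with hairpin 2, against 17.8, 9.23 and 17 CPM with scramble. Knockdown and scramble overlapped in every line and with every hairpin. The combined log2 difference was 0.14 ± 0.13 (adjusted p = 0.5 by edgeR's quasi-likelihood test with Benjamini-Hochberg adjustment), and per hairpin it ran between -0.22 and 0.33. The gene span of BTG1, introns included, overlaps that of the antisense gene AC025164.1 by 325 bases and that of LINC01619, on its own strand, by 2637 bases. How much of these overlaps is exon was not measured. AC025164.1 averaged 0.0627 to 1.54 CPM over the 9 groups and LINC01619 at most 0.121 CPM, and the division of reads among them is uncertain.

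BTG3, whose protein has been described as a p53 target and an inhibitor of E2F1, fell with knockdown. Its level in MOLM13 was 3.55, 3.36 and 3.33 CPM with hairpin 1 and 3.2, 2.19 and 3.64 CPM with hairpin 2, against 5.03, 4.88 and 5.83 CPM with scramble, and all 6 knockdown libraries were below all scramble libraries (10.6% of 21262 genes did so in MOLM13). The MOLM13 difference was -0.70 ± 0.19 log2 units (edgeR adjusted p = 0.031). In that comparison 15.6% of 17732 genes passed, 6.48% higher and 9.09% lower, and BTG3 and TOB2 were the 2 that passed of the 4 members other than BTG2. The MOLM13 call rests on few libraries: leaving out any scramble library, replicate 3 of hairpin 1 or replicate 1 of hairpin 2 took the adjusted p to between 0.05 and 0.14, with the difference at -0.63 to -0.75. Neither MOLM13 hairpin passed alone for BTG3. Hairpin 1 gave -0.63 ± 0.24 (edgeR adjusted p = 0.15) and hairpin 2 gave -0.78 ± 0.24 (adjusted p = 0.063).

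In MV411, BTG3 was at 1.91, 2.03 and 1.67 CPM with hairpin 1 and 2.71, 1.46 and 2.68 CPM with hairpin 2, against 4.86, 2.53 and 3.36 CPM with scramble. Hairpin 1 libraries lay below all scramble libraries, as they did for 12.4% of 21262 genes, and hairpin 2 libraries overlapped them. The MV411 difference was -0.80 ± 0.26 and did not pass (edgeR adjusted p = 0.11; 5.43% of genes passed, 1.71% higher and 3.72% lower). In SKNO1, BTG3 was at 6.78, 15.2 and 12.7 CPM with hairpin 1 and 7.45, 7.44 and 7.87 CPM with hairpin 2, against 9.45, 15.7 and 10.4 CPM with scramble. The hairpin 2 libraries sat together below scramble, as 17.2% of 21262 genes did, while hairpin 1 overlapped scramble. The SKNO1 difference was -0.32 ± 0.28 (adjusted p = 0.63), -0.05 ± 0.28 with hairpin 1 and -0.66 ± 0.28 with hairpin 2. Over the 3 lines BTG3 fell by 0.60 ± 0.15 log2 units (edgeR adjusted p = 0.0056), beside 19.9% of 21262 genes called in that comparison, and the call held in each of 27 fits that left out 1 library. The gene span of BTG3, introns included, overlaps that of BTG3-AS1 on the opposite strand by 1204 bases. BTG3-AS1 averaged 0.176 to 1.42 CPM over the groups.

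TOB1, which was first found as a partner of the receptor ERBB2 and is known in T cell quiescence, rose over the 3 lines together and most with 1 hairpin in SKNO1. In MOLM13 it was at 19.3, 11.5 and 14.3 CPM with hairpin 1 and 20.5, 11.6 and 17.7 CPM with hairpin 2, against 13.6, 11.5 and 10.7 CPM with scramble, with overlap. In MV411 it was at 7.63, 8.44 and 8.25 CPM with hairpin 1 and 8.19, 6.63 and 10.1 CPM with hairpin 2, against 6.46, 6.47 and 5.85 CPM with scramble. All 6 MV411 knockdown libraries lay above scramble, as 5.11% of genes did, but the difference of 0.37 ± 0.16 did not pass (edgeR adjusted p = 0.22). The MOLM13 difference was 0.41 ± 0.21 (adjusted p = 0.2). Over the 3 lines TOB1 rose by 0.42 ± 0.13 log2 units (adjusted p = 0.021), a call lost without the filter on low counts (adjusted p = 0.055).

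In SKNO1 the hairpins parted. With both in 1 group the TOB1 difference over scramble was 0.45 ± 0.26 and did not pass (edgeR adjusted p = 0.45). TOB1 was at 13, 14.5 and 11.1 CPM with hairpin 2 and 6.41, 8.23 and 6.74 CPM with hairpin 1, against 7.29, 7.49 and 7.04 CPM with scramble. Every hairpin 2 library lay above every scramble library, as was the case for 18.2% of 21262 genes. Hairpin 2 over scramble gave 0.81 ± 0.18 (edgeR adjusted p = 0.013; 11.2% of 18430 genes passed), hairpin 1 over scramble gave -0.04 ± 0.18 (adjusted p = 0.94; 0.532% passed), and hairpin 2 over hairpin 1 gave 0.85 ± 0.18 (adjusted p = 0.011; 9.52% passed, 4.52% higher). Without replicate 2 of hairpin 2 the adjusted p was 0.093 against scramble and 0.068 against hairpin 1, and without replicate 1 or 3 of scramble the first of these was 0.074 or 0.064. CARM1 was at 2.67 to 2.85 CPM with hairpin 2 and at 5.69 to 8.74 CPM with hairpin 1 in SKNO1, and the part of that gap in the TOB1 difference was not tested. Between hairpins TOB1 in SKNO1 was the 1 call: of the 4 members other than BTG2, edgeR called 0 in MOLM13 and in MV411 (0 and 1 at an unadjusted p under 0.05, and 0 in both by DESeq2), where 0% and 11.5% of genes passed. For MOLM13 that is 0 of 17732 genes, with 335 at an unadjusted p under 0.05 and 0 by DESeq2. The gene span of TOB1, introns included, overlaps that of TOB1-AS1 on the opposite strand by 1300 bases. TOB1-AS1 was at 0.285 to 1.88 CPM.

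TOB2, the closest relative of TOB1 and like it a partner of PABPC1, fell in MOLM13. There it was at 27.5, 18.1 and 19.7 CPM with hairpin 1 and 18.4, 24.5 and 25.8 CPM with hairpin 2, against 33.8, 33.8 and 32 CPM with scramble, and no knockdown library reached the lowest scramble library, as for 10.6% of genes. TOB2 fell by 0.56 ± 0.15 log2 units in MOLM13 (edgeR adjusted p = 0.031). As for BTG3, the call was lost in 5 of the 9 fits that left out 1 library, namely any scramble library, replicate 3 of hairpin 1 or replicate 1 of hairpin 2, with adjusted p between 0.056 and 0.12. Neither MOLM13 hairpin passed alone for TOB2 either. Hairpin 1 gave -0.61 ± 0.19 (edgeR adjusted p = 0.085) and hairpin 2 gave -0.51 ± 0.19 (adjusted p = 0.11). In MV411, TOB2 was at 22.9, 20.2 and 21.2 CPM with hairpin 1 and 25.3, 28.3 and 28.8 CPM with hairpin 2, against 29, 28.5 and 30.7 CPM with scramble. With both hairpins in 1 group the MV411 difference was -0.28 ± 0.14 and did not pass (edgeR adjusted p = 0.3). Hairpin 1 gave -0.47 ± 0.12 (adjusted p = 0.045; 6.51% of 17816 genes passed) and hairpin 2 gave -0.12 ± 0.12 (adjusted p = 0.56; 18.6% passed). The hairpin 1 call was lost in 7 of 9 fits without 1 library, those without any hairpin 1 or scramble library or without replicate 1 of hairpin 2, with adjusted p of 0.058 to 0.19, and the difference between the hairpins, 0.35 ± 0.12, did not pass (adjusted p = 0.092).

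In SKNO1, TOB2 was at 29.6, 24.2 and 22.5 CPM with hairpin 1 and 35.1, 38.3 and 27.8 CPM with hairpin 2, against 27, 28.1 and 29 CPM with scramble, so the groups overlapped. The SKNO1 difference was 0.06 ± 0.19 (edgeR adjusted p = 0.91; 0.0434% of genes passed, 0.0326% higher), and over the 3 lines it was -0.26 ± 0.10 (adjusted p = 0.074). Without replicate 3 of MV411 hairpin 2, replicate 2 of SKNO1 hairpin 2 or replicate 1 of SKNO1 scramble that adjusted p was 0.049, 0.036 or 0.05, just under the threshold of 0.05 before rounding. The MOLM13 effect was 0.64 ± 0.20 log2 units below that of SKNO1 (written as MOLM13 minus SKNO1, -0.64), with adjusted p = 0.072 by edgeR and 0.029 by DESeq2. In the tests of line against line in the knockdown effect, edgeR called 0 of the 4 members other than BTG2 for each pair of lines. For MOLM13 minus SKNO1, 1 member had an unadjusted p under 0.05 and DESeq2 called 1, and 3.32% of genes passed; for MV411 minus SKNO1 and MOLM13 minus MV411 both counts were 0, and 1.44% and 0.0047% of genes passed. The processed pseudogene TOB2P1 was at 0.378 to 1.99 CPM, and reads may have been divided between it and TOB2.

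Without knockdown, the order of the members differed between the lines. To compare genes, levels were also divided by exon length (CPM per kb). In scramble libraries BTG1 led in MOLM13, at 9.79 ± 1.27 CPM per kb (SD, n = 3), followed by TOB2 at 7.27 ± 0.234, BTG2 at 6.36 ± 2.15, TOB1 at 4.73 ± 0.606 and BTG3 at 2.28 ± 0.22. The middle neighbours TOB2 and BTG2 were not apart beyond their spread. Nor were BTG2 and TOB1, since in replicate 3 BTG2 stood at 3.91 CPM per kb against 4.24 for TOB1. In MV411 scramble BTG2 led at 8.07 ± 0.583, before TOB2 at 6.44 ± 0.245, BTG1 at 5.82 ± 1.46, TOB1 at 2.48 ± 0.141 and BTG3 at 1.55 ± 0.511, and TOB2 and BTG1 were not apart beyond their spread. In SKNO1 scramble the order was TOB2 at 6.14 ± 0.221, BTG3 at 5.13 ± 1.45, BTG1 at 3.03 ± 0.976, BTG2 at 2.9 ± 0.059 and TOB1 at 2.88 ± 0.0885, the last 3 being within each other's spread. TOB2 and BTG3 were not apart beyond their spread either, since BTG3 stood at 4.1, 6.79 and 4.5 CPM per kb in the 3 libraries against 5.92, 6.14 and 6.36 for TOB2.

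Between scramble groups, BTG2 was higher in MOLM13 than in SKNO1 by 1.13 ± 0.23 log2 units and in MV411 than in SKNO1 by 1.47 ± 0.23. These BTG2 values are given without a test, since the scramble libraries entered its choice. The 4 other members were tested. BTG1 was higher in MOLM13 than in SKNO1 by 1.69 ± 0.26 (edgeR adjusted p = 5.8e-06) and in MV411 than in SKNO1 by 0.94 ± 0.26 (adjusted p = 0.0033). BTG3 ran the other way, at -1.17 ± 0.28 for MOLM13 over SKNO1 (adjusted p = 0.00099) and -1.73 ± 0.28 for MV411 over SKNO1 (adjusted p = 1.5e-05). TOB1 was higher in MOLM13 than in SKNO1 by 0.71 ± 0.20 (adjusted p = 0.005) and than in MV411 by 0.93 ± 0.21 (adjusted p = 0.0011). TOB2 differed by 0.24, 0.07 and 0.18 log2 units in the 3 pairs, none of which passed. So 3 of the 4 members other than BTG2 passed between MOLM13 and SKNO1, 2 between MV411 and SKNO1 and 2 between MOLM13 and MV411. Beside them, 52.4%, 52.6% and 28.2% of all genes passed. Both calls of the last pair were higher in MOLM13, as 13.9% of genes were. The last pair's second call was BTG1, at 0.75 ± 0.25 (adjusted p = 0.028), and its adjusted p was 0.083 without replicate 1 of MOLM13 scramble, 0.14 without replicate 2 and 0.089 without replicate 3 of MV411 scramble. All SKNO1 cultures had GM-CSF and the labels give none for the other lines, so line and supplement cannot be told apart.

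**Figure D3:**
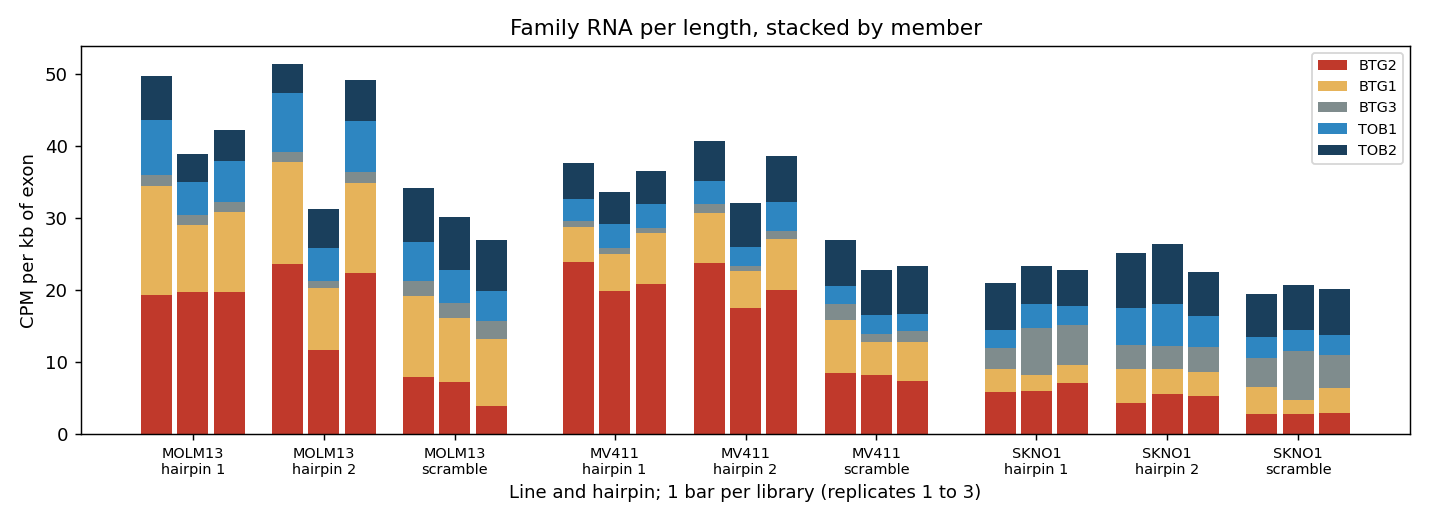
Summed RNA of the 5 members per kb of exon (y axis, CPM per kb), 1 stacked bar per library, with the hairpins left of scramble in each line. BTG2 fills a larger part of the bar with knockdown than with scramble in all 3 lines, and BTG3 is visible mainly in SKNO1.

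Per length, BTG2 was the leading member with knockdown in MOLM13 and MV411. Its share of the summed family level was 45.3% ± 5.96 with hairpin 1 and 43% ± 4.88 with hairpin 2 against 20.6% ± 5.26 with scramble in MOLM13 (SD, n = 3 each). In MV411 it was 59.8% ± 3.35 and 55% ± 3.35 against 33.2% ± 2.77, and in SKNO1 28.5% ± 2.77 and 20.8% ± 3.22 against 14.5% ± 0.491, hairpin 1 before hairpin 2 and scramble last. The family sum was 43.6 ± 5.49 and 43.9 ± 11 CPM per kb with the hairpins against 30.4 ± 3.63 with scramble in MOLM13. It was 36 ± 2.06 and 37.2 ± 4.51 against 24.4 ± 2.27 in MV411, and 22.4 ± 1.23 and 24.7 ± 1.97 against 20.1 ± 0.619 in SKNO1. TOB2 led in the SKNO1 hairpin 2 libraries at 29.7% ± 2.47. In SKNO1 scramble TOB2 at 30.6% ± 0.952 and BTG3 at 25.4% ± 6.44 were not apart beyond their spread, and BTG3 was the higher in replicate 2. With SKNO1 hairpin 1, BTG2 at 28.5%, TOB2 at 25% ± 5.02 and BTG3 at 22.1% ± 7.33 were not apart beyond their spread. Shares of 1 sum are not independent of each other, and BTG2's own difference enters each of them.

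The pattern of each member over the 27 libraries, as log2 CPM centred within each line, was set against 10253 genes. For BTG2 the highest correlations were with TSEN34 (Pearson's r = 0.912), a subunit of the tRNA splicing endonuclease, TMEM176B (0.911), a membrane protein of myeloid cells, SQSTM1 (0.911), the autophagy receptor p62, SNN (0.909) and NCF1B (0.901), a near copy of a phagocyte oxidase gene. For BTG3 they were OXCT1 (0.911), an enzyme of ketone use, and MRPL13 (0.902), a mitochondrial ribosomal protein. BTG1 had lower peaks with ZNF836 (0.797) and the Fc receptor FCGR1A (0.786), TOB1 with ZBTB34 (0.88) and ITM2B (0.871), and TOB2 with MPDU1 (0.847) and KHDRBS1 (0.838). Among members, BTG2 had r = -0.613 with TOB2, -0.523 with BTG3, 0.524 with TOB1 and 0.232 with BTG1, and BTG1 had 0.598 with TOB1. These are descriptions without a test: the same libraries and the same knockdown contrast enter every pair.

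The proteins that BTG and TOB work with were followed through lists, which were chosen with earlier results of these data known. As background for the counts by hairpin, 6.38% of genes were called with MOLM13 hairpin 1 (2.13% higher, 4.25% lower) and 9.42% with MOLM13 hairpin 2 (3.39% higher, 6.03% lower). With MV411 hairpin 1, 2.37% were higher and 4.13% lower, and with MV411 hairpin 2, 8.38% were higher and 10.2% lower. With SKNO1 hairpin 1, 0.255% were higher and 0.277% lower, and with SKNO1 hairpin 2, 5.54% were higher and 5.69% lower. In the combined comparison, where 10.1% of genes rose, 9.79% fell and the median log2 difference was 0.05, 4 of 12 CCR4-NOT genes fell and 8 were not called, with a list median of -0.15. Those that fell were CNOT9, a subunit that contacts RNA-binding adaptors (-0.41 ± 0.09, edgeR adjusted p = 0.0021), the core subunit CNOT2 (-0.32 ± 0.07, 0.0031), the scaffold CNOT1 (-0.27 ± 0.08, 0.021) and the nuclease CNOT6 (-0.39 ± 0.12, 0.026). The 2 deadenylases that BTG and TOB proteins contact were not called: CNOT7 stood at -0.13 ± 0.10 (adjusted p = 0.39) and CNOT8 at 0.13 ± 0.11 (adjusted p = 0.43). By hairpin, 3 and 2 CCR4-NOT genes fell in MOLM13, 1 and 1 in MV411, and in SKNO1 edgeR called 0 of the 12 with hairpin 1 and with hairpin 2 (3 and 1 at an unadjusted p under 0.05, and 1 and 0 by DESeq2). Of 11 other deadenylation and poly(A) binding genes, 2 fell, the deadenylase TOE1 (-0.47 ± 0.12) and the mitochondrial PDE12 (-0.45 ± 0.12), 1 rose, PABPC4 (0.30 ± 0.08), and 8 were not called. PABPC1, the TOB partner, stood at 0.11 ± 0.08 (adjusted p = 0.37).

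Among proteins that bring CCR4-NOT to chosen mRNAs, 3 of 16 tested rose and 1 fell, with a median of 0.08. ZFP36 and ZFP36L1, which bind AU-rich elements, rose by 0.72 ± 0.14 (edgeR adjusted p = 0.00042) and 0.96 ± 0.19 (adjusted p = 0.0005), and TNRC6A, which links microRNA complexes to CCR4-NOT, rose by 0.26 ± 0.08 (adjusted p = 0.028). NANOS1, an RNA-binding protein of the germ line, fell by 0.46 ± 0.14 (adjusted p = 0.022). Of 7 tested genes for other partners, SKP2, a ubiquitin ligase subunit, fell by 0.61 ± 0.12 (adjusted p = 0.00071) and the cap-binding EIF4E fell by 0.34 ± 0.12 (adjusted p = 0.047). PRMT1, which BTG1 and BTG2 bind, stood at -0.18 ± 0.11 (adjusted p = 0.24).

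**Figure D4:**
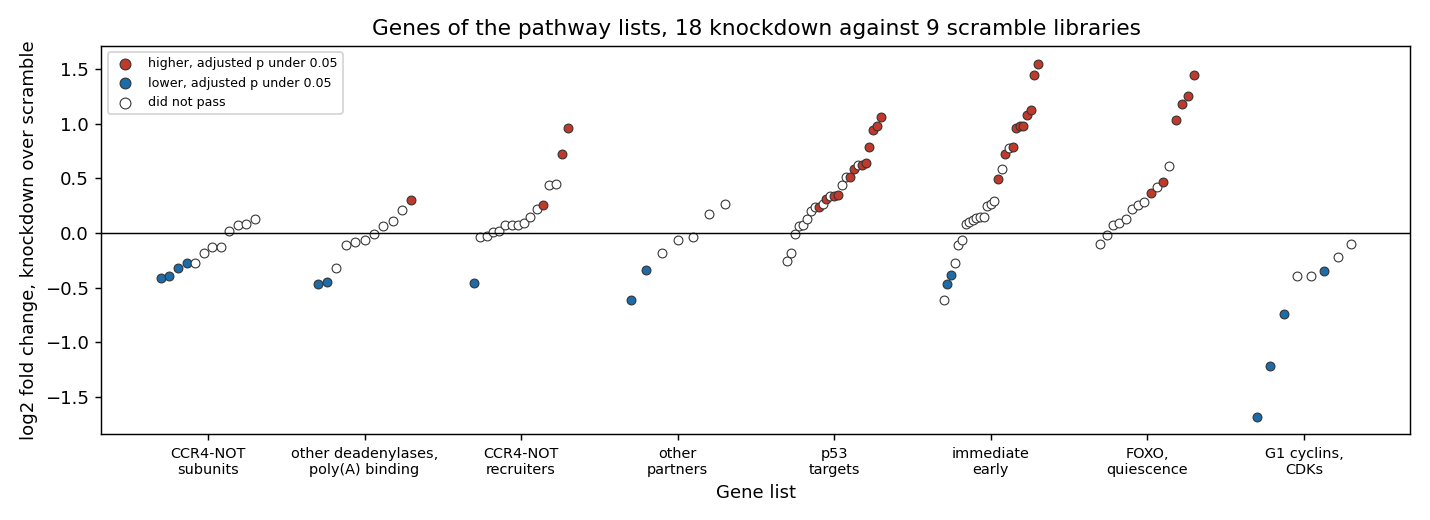
Log2 fold change of each gene of 8 lists in the comparison of all 18 knockdown with all 9 scramble libraries (y axis), 1 point per gene, filled red where higher and blue where lower at an adjusted p under 0.05. The called genes of the p53 and FOXO lists are all higher, and those of the CCR4-NOT and G1 lists are all lower.

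BTG2 is known as a target of p53, of growth factor signalling and of FOXO factors, so genes of those groups are given beside it. Of 25 p53 targets, 12 rose and 13 were not called, with a median of 0.34 log2 units. CDKN1A, the CDK inhibitor p21, rose by 1.06 ± 0.22 (edgeR adjusted p = 0.00093), TP53INP1 rose by 0.98 ± 0.22 and RRM2B, a ribonucleotide reductase subunit, rose by 0.62 ± 0.14. By hairpin the p53 list had fewer calls: 2 and 1 higher in MOLM13, 3 and 5 higher in MV411 with 1 lower with hairpin 2, and 6 higher with SKNO1 hairpin 2, while edgeR called 0 with SKNO1 hairpin 1 (7 at an unadjusted p under 0.05 and 3 by DESeq2). Of 27 immediate early genes, 10 rose, 2 fell and 15 were not called, with a median of 0.27. The transcription factors JUN (1.55 ± 0.23, adjusted p = 2.1e-05) and KLF4 (1.08 ± 0.19) rose with the stress gene IER3 (0.98 ± 0.19), and SRF, which drives such genes, and MYC were the 2 that fell (-0.38 ± 0.11 and -0.47 ± 0.17). By hairpin, the immediate early list had 4 genes higher with MOLM13 hairpin 1, and 6 higher and 1 lower with MOLM13 hairpin 2. It had 9 higher and 1 lower with MV411 hairpin 1, but 1 higher and 4 lower with MV411 hairpin 2, where its median was -0.06. With SKNO1 hairpin 2, 7 were higher and 1 lower, and with SKNO1 hairpin 1 edgeR called 0 of 23 (6 at an unadjusted p under 0.05 and 3 by DESeq2).

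The immediate early list differed between the MV411 hairpins: hairpin 2 was lower than hairpin 1 for 12 of 25 genes tested, with a median of -0.72 beside 0.01 over all genes, of which 5.86% were higher and 5.62% lower. JUN was called there, at -1.13 ± 0.28 (edgeR adjusted p = 0.026). BTG2, which was chosen for a rise with every hairpin, stood at -0.09 ± 0.14 in the same contrast. A link between it and the immediate early genes was not tested. In the combined comparison, 6 of 16 FOXO targets and quiescence genes rose and 10 were not called, with a median of 0.32. PIK3IP1, an inhibitor of PI3K, rose by 1.25 ± 0.21 (adjusted p = 8.9e-05), the sestrin SESN3 by 1.18 ± 0.21 and YPEL3 by 1.03 ± 0.22. KLF2, which stands in both the immediate early and the FOXO list, rose by 1.45 ± 0.32. By hairpin, hairpin 1 before hairpin 2, the FOXO list had 2 and 3 genes higher in MOLM13 and 3 and 6 in MV411. With SKNO1 hairpin 2, 5 of 15 were higher, with a median of 0.41. With SKNO1 hairpin 1 edgeR called 0 of 15 (5 at an unadjusted p under 0.05 and 1 by DESeq2), and the median was -0.07.

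Cyclins and kinases of G1, the phase at which BTG and TOB proteins hold cells when overexpressed, fell for 4 of 8 genes, with a median of -0.39. CCNE2 fell by 1.68 ± 0.25 (edgeR adjusted p = 2e-05), CDK2 by 1.22 ± 0.20 (adjusted p = 5e-05), CCNE1 by 0.74 ± 0.13 (adjusted p = 0.00019) and CCND3 by 0.35 ± 0.11 (adjusted p = 0.025). By hairpin, 3 and 4 of the 8 fell in MOLM13 and 2 and 7 in MV411, with 3 in SKNO1 hairpin 2 and 0 called by edgeR in SKNO1 hairpin 1 (0 at an unadjusted p under 0.05 and 0 by DESeq2). CCNE2 was lowest in MV411 hairpin 2, at -3.24 ± 0.41 against scramble (edgeR adjusted p = 0.00063). BTG2, chosen for its rise, was 1.32 ± 0.14 higher there, where the G1 median was -1.21. MV411 hairpin 1 gave 1.41 ± 0.14 for BTG2 beside a G1 median of -0.22. BTG2 rose by 1.13 ± 0.17 with SKNO1 hairpin 1 (G1 median -0.02) and by 0.81 ± 0.17 with SKNO1 hairpin 2 (-0.81). Both MOLM13 hairpins gave 1.62 ± 0.30, beside G1 medians of -0.64 (hairpin 1) and -0.73 (hairpin 2). A link between BTG2 and the G1 genes was not tested.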

How the data were processed

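Total RNA was extracted with Trizol and RNeasy and sequenced from stranded, ribosomal RNA depleted libraries, per the labels' protocols. The deposited values are RSEM expected counts per gene, made after alignment with STAR 2.5.3 to GRCh38.p7, per the submitters' processing notes. The RSEM version and the strand setting of the counting are not given in the sources used here, so reads of a gene and its antisense partner may not be separated. Of the non-zero values 30.39% were not whole (tolerance 1e-09), and the expected counts were rounded before testing.

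Tests used edgeR 4.0.16 in R 4.3.3: low genes were dropped by filterByExpr, with a minimum count of 10 and at least 15 in all, library sizes were adjusted by TMM, and the quasi-likelihood F-test was applied, with Benjamini-Hochberg adjustment over all genes tested and a threshold of 0.05. All 5 members passed this filter. The standard error is the log2 fold change divided by the square root of F. Each line was fitted on its own for knockdown against scramble and for the hairpins. Comparisons between lines and the combined comparison used all 27 libraries, the combined one with line as a term. CPM used TMM factors of the 27 libraries, and CPM per kb divided by the union of GENCODE 29 exons. Correlations used log2 CPM with a prior count of 2. The tests were checked on simulated data.

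Alternatives were DESeq2 1.42.0, its size factors in edgeR, no filter on low counts, removal of mitochondrial and structured RNA, a replicate block, separate hairpin groups, and each library left out in turn. The members and gene lists were chosen with earlier results of these data known. From each list, genes were named by smallest p in the combined comparison, up to 3 in the direction with more calls and 1 in the other. CNOT7, CNOT8, PABPC1, PRMT1, KLF2 and a few further called genes are named for their link to the family or after their values were seen. No batch or date is given in the labels.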

Additional observations from a re-analysis of the deposited data

How the results depend on the processing

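No member changed direction with a call under any alternative run. In the combined comparison BTG2 ran from 1.23 to 1.35 and BTG3 kept its call in all 27 fits without 1 library, and BTG1 gained no call against scramble. Calls on single members moved as follows. Without the filter on low counts, the BTG3 call in MOLM13 was lost (adjusted p = 0.07), as were those of TOB1 combined (0.055) and TOB2 with MV411 hairpin 1 (0.12), while BTG3 gained one with MV411 hairpin 1 (0.024) and SKNO1 hairpin 2 (0.032) and TOB2 with MOLM13 hairpin 1 (0.047). DESeq2 added calls for BTG3 with MOLM13 hairpin 2 (0.018) and MV411 hairpin 1 (0.05) and for TOB2 with MOLM13 hairpin 1 (0.047). The labels do not say what a replicate number shares, and same-numbered libraries did not all correlate above 0.1 (range -0.263 to 0.501), so the numbers were not used as pairs. As a hint from the data, 5, 7 and 7 of 9 libraries matched their own number best in MOLM13, MV411 and SKNO1. With the replicate block, the TOB2 call in MOLM13 was lost (adjusted p = 0.05) and BTG3 gained one with MV411 hairpin 1 (0.04). The block changed no other call on a member.

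Counts of called genes moved more. For knockdown against scramble, MV411 had 967 genes, with 1662 by DESeq2 and 2199 with separate hairpin groups. SKNO1 had 8, with 676 by DESeq2, 726 with separate hairpin groups, 107 without the filter and 0 with the replicate block. For hairpin 1, MOLM13 had 1131 (1925 by DESeq2, 2185 without the filter), MV411 1159 (1913 without the filter, 2250 with the block) and SKNO1 98 (927 by DESeq2, 774 without the filter, 458 with the block). For hairpin 2, MOLM13 had 1671 (2661 by DESeq2, 2897 without the filter). Between hairpins, MOLM13 had 0 (59 without the filter) and MV411 2046 (3516 with the block). Between lines, by DESeq2, without the filter and with the block, the effect of MOLM13 minus SKNO1 went to 1425, 1201 and 1215 from 705, MV411 minus SKNO1 to 848, 814 and 595 from 306, and MOLM13 minus MV411 to 29, 213 and 13 from 1. The cause was not tested.

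Without 1 library, knockdown counts ran from 1045 to 3449 in MOLM13, 377 to 988 in MV411 and 1 to 79 in SKNO1. Hairpin 1 gave 335 to 1436, 341 to 1562 and 3 to 411, and hairpin 2 gave 441 to 1774, 1716 to 3548 and 559 to 2813, in the same order of lines. Between hairpins they were 0 to 1, 873 to 2105 and 601 to 2178. The effects between lines gave 78 to 1000, 58 to 420 and 0 to 10, in the order above. With 3 libraries a group, a missed threshold does not show equal levels.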
